A study of Mus musculus with 9 samples.

Results

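The genes described here are those that carry the symbol Zbtb followed by a number, the largest set of the BTB zinc finger family, including Zbtb7b and Zbtb7a, which encode Thpok and LRF. They were taken by symbol alone, and 37 of the 13698 genes in the table met the rule. All but Zbtb8os encode BTB zinc finger proteins; Zbtb8os is named for its position opposite Zbtb8a and its product is a factor of tRNA ligation. GENCODE M21 lists 41 protein-coding genes with such symbols, and the other 4, Zbtb7c, Zbtb8b, Zbtb9 and Zbtb16, were not analysed here.

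The study sequenced RNA from regulatory T cells (Treg cells) of spleen and lymph node, taken from female mice of a C56Bl6/129 mix background, in 9 libraries of 3 groups. Every mouse carried 1 copy of Foxp3 Cre-YFP, so that Cre and the fluorescent protein are made only in cells that use that X-linked Foxp3 allele. The deficient cells were YFP+MHCII- cells of 3 mice with the genotype LRFffThpokff Foxp3 Cre-YFP/X, in which Cre acts on floxed alleles of both genes. The animal controls were the YFP-MHCII-CD25hi cells of those same mice, numbered 142114, 232614 and 432614, which carry the floxed alleles without the YFP mark. The genetic controls were YFP+MHCII- cells of mice 124, 8619 and 8800, genotype WT Foxp3 Cre-YFP/X. The labels give neither ages nor pooling of mice.

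BTB zinc finger proteins pair through an amino-terminal BTB domain, which also binds corepressors such as NCOR1 and BCOR and, in some members, the ubiquitin ligase subunit CUL3. Their carboxy-terminal C2H2 zinc fingers bind DNA, and most members act as repressors. Thpok directs developing T cells to the CD4 helper lineage and represses CD8 lineage genes, and LRF, its closest well-studied relative, shares part of that work in mature CD4+ cells. Other members steer innate-like T cells, dendritic cells, plasma cells and early lymphoid progenitors, so the family is a natural place to look for relatives that change when Thpok and LRF are removed together.

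Promoter windows were read for the members because Thpok and LRF are themselves DNA-binding repressors. Windows of 300 bases, from 250 before to 50 after a RefSeq start site on GRCm38.p6, matched 34 of the 37 members by symbol; Zbtb10, Zbtb40 and Zbtb48 had none. The windows below show the deleted genes, with both annotated starts of Zbtb7b, and Zbtb2, the relative with the least spread between libraries. Letters are lower case, 5′ to 3′ on the strand of the gene, and capitals mark GACCC or its reverse complement GGGTC, the core of the site described for LRF.
Zbtb7b, start farther upstream, chr3:89393329-89393628, minus strand: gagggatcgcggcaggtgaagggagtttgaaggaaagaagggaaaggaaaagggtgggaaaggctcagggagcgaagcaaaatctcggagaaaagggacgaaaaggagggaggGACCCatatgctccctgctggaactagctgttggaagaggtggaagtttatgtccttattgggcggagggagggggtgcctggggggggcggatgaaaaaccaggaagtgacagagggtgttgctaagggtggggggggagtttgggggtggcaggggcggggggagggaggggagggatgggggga
Zbtb7b, start farther downstream, chr3:89387622-89387921, minus strand: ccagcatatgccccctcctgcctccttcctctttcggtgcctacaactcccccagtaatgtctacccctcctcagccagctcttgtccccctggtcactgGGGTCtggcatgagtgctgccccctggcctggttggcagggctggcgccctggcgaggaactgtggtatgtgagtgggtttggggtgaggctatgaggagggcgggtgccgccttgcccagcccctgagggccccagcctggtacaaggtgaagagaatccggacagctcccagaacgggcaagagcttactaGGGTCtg
Zbtb7a, chr10:81136021-81136320, plus strand: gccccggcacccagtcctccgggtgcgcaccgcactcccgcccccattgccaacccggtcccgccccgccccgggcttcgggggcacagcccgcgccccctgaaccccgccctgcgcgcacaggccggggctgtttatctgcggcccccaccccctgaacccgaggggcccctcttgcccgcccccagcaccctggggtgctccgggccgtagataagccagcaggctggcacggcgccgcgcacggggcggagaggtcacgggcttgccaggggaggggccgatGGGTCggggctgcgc
Zbtb2, chr10:4388059-4388358, minus strand: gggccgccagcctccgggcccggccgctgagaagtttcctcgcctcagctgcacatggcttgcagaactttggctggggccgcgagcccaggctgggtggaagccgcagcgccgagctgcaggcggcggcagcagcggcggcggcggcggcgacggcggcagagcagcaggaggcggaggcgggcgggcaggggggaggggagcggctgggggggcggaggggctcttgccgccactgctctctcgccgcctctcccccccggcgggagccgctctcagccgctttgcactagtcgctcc
The pentamer, searched on both strands, begins 137 bases before the upstream start of Zbtb7b (position -137), at -150 and +43 around the other start, and at +35 in Zbtb7a. Zbtb2 has no match in this window. Such a short word is common: 43.9% of all 32851 windows of this length held it, against 24 of the 47 member windows (51.1%). The 2 windows of Zbtb7b held 8 and 7 CG dinucleotides, while that of Zbtb7a held 31 and that of Zbtb2 held 33. Member windows held a median of 25 CG dinucleotides, against 7 for all windows. A match here is a description of the letters, and binding was not measured.

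All values are the authors' normalized log2 CPM, where CPM is a read count scaled to the size of the library, given as CPM where levels are named; changes are log2 fold changes ± SE from limma over all genes, 3 libraries against 3, with Benjamini-Hochberg adjusted p and a threshold of 0.05. The depth of the libraries is unknown. Nothing in the labels says how many cells or sorts lie behind a library. The p-values therefore measure the spread between libraries, in which mouse, sort and library preparation cannot be told apart. The main fit treated the 9 libraries as independent, although deficient cells and animal controls came from the same mice. In bulk RNA, fewer cells with a transcript and less transcript per cell cannot be told apart. The 10 listed Treg markers summed to 5051 to 5480 CPM in deficient libraries, 6004 to 7046 in the genetic and 7976 to 8825 in the animal controls. Much of that sum came from genes that other T cells also use. In deficient libraries Il2rb, Cd3e and Cd4 averaged 1590, 1255 and 355 CPM. The sum therefore cannot tell Treg cells from other T cells. Foxp3 itself averaged 32.2 CPM in deficient libraries, 33.3 in the genetic and 905 in the animal controls, whose cells use the unmodified Foxp3 allele. Of 15 myeloid and dendritic markers, 6 were listed; they summed to 8.55 to 66.9 CPM in every library but genetic control 8619, with 299.8 CPM. Of 8 erythroid and platelet markers, 6 were listed, with a summed level of 0.0817 to 76.1 CPM, highest in that same library. The 7 listed B cell markers of 10 summed to 54.8 to 71.9 CPM in deficient libraries, 14.3 to 30.8 in the genetic and 62.2 to 106 in the animal controls. Most of that sum was 1 gene, Cd79b, which averaged 54.3, 17.7 and 59.7 CPM in the same order. Ebf1, on the same list, was at the lowest value of the table in all 3 deficient libraries.

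Zbtb7b was almost absent from the deficient cells. It measured 0.366, 0.266 and 0.147 CPM in deficient mice 142114, 232614 and 432614. The genetic controls 124, 8619 and 8800 gave 92.1, 103 and 149 CPM, and the animal controls of the 3 deficient mice gave 76.9, 106 and 98.6 CPM. Every deficient library thus lay far below every control library. The fitted change was -8.85 ± 0.53 against the genetic controls (95% interval -10.03 to -7.68, limma adjusted p = 1.03e-04) and -8.58 ± 0.53 against the animal controls (adjusted p = 8.75e-05). With the mouse as a fixed term on the 6 libraries of the shared mice, the latter change had the same size and an adjusted p of 0.170; in that fit 0 of 13698 genes passed, and 1395 had an unadjusted p under 0.05. With the mouse as a random term over all libraries the adjusted p was 7.29e-05. Since the deficient values are near the low end of the table, these folds depend on how the authors set their lowest values, and with 1 CPM added to every value the change was -6.50 against the genetic and -6.22 against the animal controls. The gene lies at chromosome 3, start 89377644, end 89394776, on the minus strand of GRCm38.

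Zbtb7a, the other floxed gene, kept its level of RNA. Its deficient libraries read 86.3, 78.8 and 103 CPM, the genetic controls 69.5, 89.8 and 111 CPM, and the animal controls 128, 90.6 and 116 CPM. The groups overlapped. Its change was 0.01 against the genetic controls (95% interval -0.55 to 0.56) and -0.31 against the animal controls (-0.87 to 0.24), and it was lower than in the animal control of the same mouse in all 3 mice, by 0.57, 0.20 and 0.16 on the log2 scale. The interval against the genetic controls spans 0.683-fold to 1.47-fold. Values are per gene, and the labels do not say which exons lie between the loxP sites, so a transcript that lost an exon but stayed stable would still be counted. Whether LRF protein was lost was not tested by these data. The gene lies at chromosome 10, start 81135220, end 81152995, on the plus strand.

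**Figure D1:**
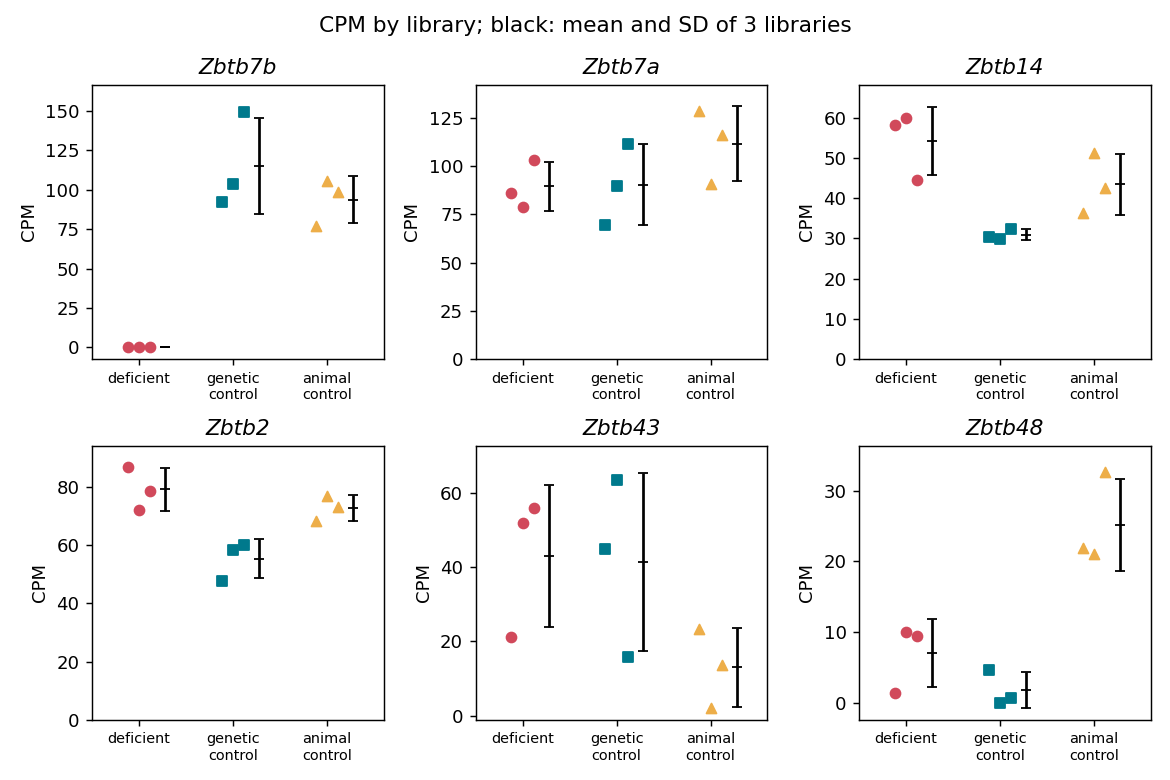
CPM of 6 Zbtb genes (vertical axes, linear) in each library of the deficient cells (circles), genetic controls (squares) and animal controls (triangles), with the mean and SD of 3 libraries in black. Zbtb7b lies between 0.147 and 0.366 CPM in deficient libraries and at 76.9 CPM or more in every control, whereas Zbtb7a overlaps across the groups; in Zbtb14, Zbtb2 and Zbtb48 the genetic controls lie below the animal controls.

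Per length of exon, Zbtb7b had the highest mean of the family in both control groups, and the place of Zbtb7a differed between them. Levels of different genes are compared here as CPM per kb of merged exons in GENCODE M21, over the 6 control libraries. Zbtb7b stood at 18.7 ± 4.36 CPM per kb (SD, n = 6) and Zbtb7a at 14.8 ± 3.16, followed by Zbtb22 (14.0 ± 5.43), Zbtb25 (13.3 ± 5.17), Zbtb44 (11.7 ± 3.37) and Zbtb11 (10.2 ± 4.0). In the genetic controls alone the order was Zbtb7b (20.6 ± 5.43, n = 3), Zbtb25 (15.8 ± 3.03), Zbtb22 (15.4 ± 2.06) and Zbtb7a (13.3 ± 3.08). In the animal controls it was Zbtb7b (16.8 ± 2.68), Zbtb7a (16.4 ± 2.84) and Zbtb22 (12.7 ± 8.0). Neighbours in the order over 6 libraries overlap in their ranges, from 13.7 to 26.7 for Zbtb7b and from 10.2 to 18.9 for Zbtb7a, so the rank of single genes is not settled. Within single libraries the ratio of Zbtb7b to Zbtb7a per kb ran from 1.40 to 1.63 in the genetic controls and from 0.729 to 1.42 in the animal controls. It was 0.00174 to 0.00517 in the deficient cells. There Zbtb25 (18.1 ± 5.17 CPM per kb, n = 3), Zbtb7a (13.1 ± 1.85), Zbtb14 (11.6 ± 1.81), Zbtb11 (11.0 ± 3.73) and Zbtb2 (10.8 ± 1.0) stood highest, and Zbtb7b was in place 34 of 37. Merged exons count every annotated isoform, which lowers the value of long, many-isoform genes such as Zbtb20, with 30.7 kb.

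**Figure D2:**
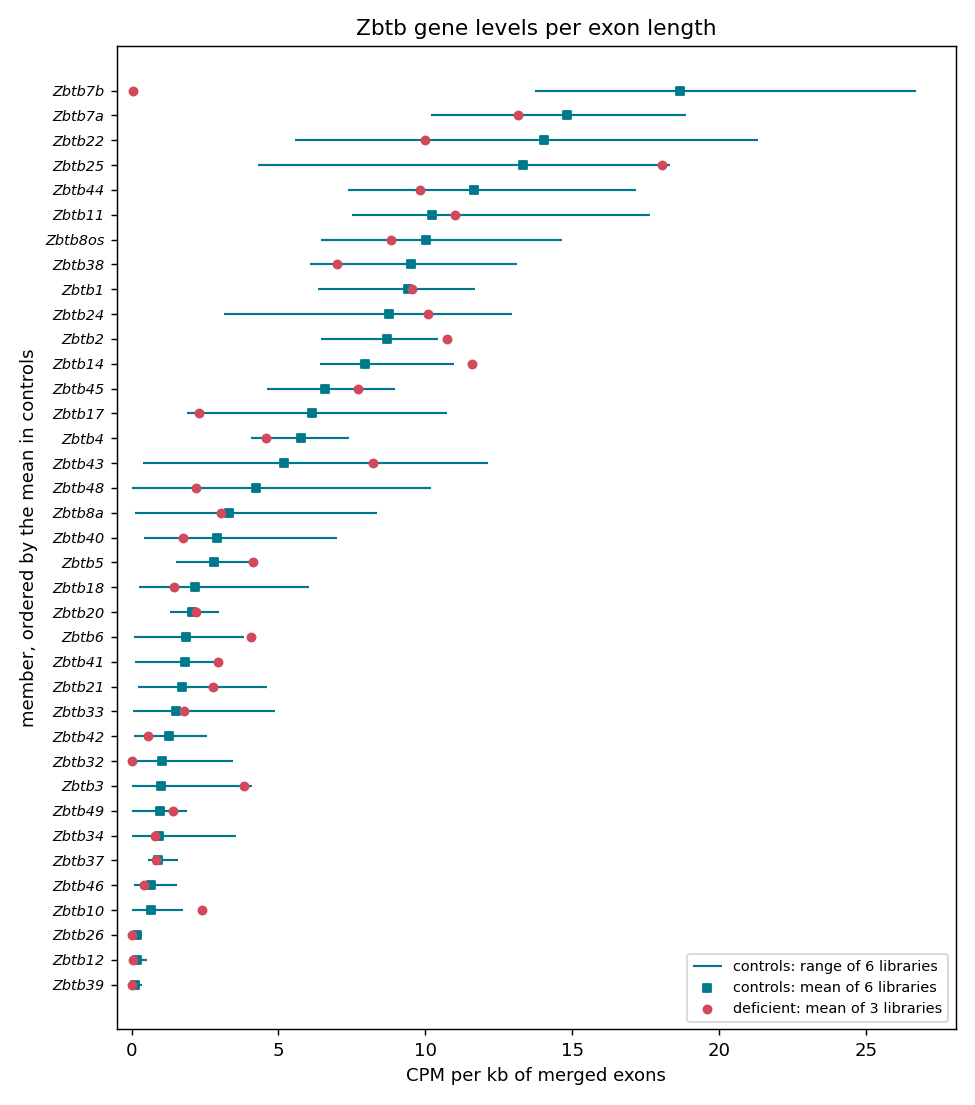
Mean CPM per kb of merged exons (horizontal axis, linear) of the 37 members, ordered by their mean in the controls. Squares and lines give the mean and range of the 6 control libraries and circles the mean of the 3 deficient libraries; Zbtb7b moves from the top, 18.7, to 0.0465, while Zbtb7a stays within the control range.

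No relative passed the test in the deficient cells. Against the genetic controls 1 of the 37 members was called in either direction (2.70%, beside 0.869% of all genes): 0 were called higher (0.336% of all genes) and 1, Zbtb7b, lower (0.533% of all genes). Against the animal controls the counts were again 0 higher (background 0.307%) and 1 lower (0.584%, and 0.891% either way). Against the mean of both control groups they were 0 higher (0.394%) and 1 lower (0.832%, and 1.23% either way). The other 36 members had limma adjusted p of 0.345 or more against the genetic, 0.320 or more against the animal and 0.400 or more against both controls. At an unadjusted p under 0.05, 3 members were higher and 3 lower than in the genetic controls (8.11% each, against 4.96% and 5.66% of all genes), and 1 was higher and 2 lower than in the animal controls (2.70% and 5.41%, against 5.57% and 6.34%). Against both controls 0 were higher and 1 lower by that measure (beside 5.73% and 6.80%), and the same counts had groups without overlap (beside 3.47% and 3.33%). Over 17 fits against the genetic and 18 against the animal controls, the main fit among them, 0 members other than Zbtb7b were called. These fits included limma without the trend and limma with the robust step. All drew on the same 9 libraries, so they are not independent checks. The lowest limma adjusted p of any other member was 0.184 for Zbtb32 and 0.163 for Zbtb42.

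The estimates of the relatives lay on both sides of 0. Of all 37 members, 21 had an estimate above 0 against the genetic, 17 against the animal and 21 against both controls, beside 52.6%, 52.4% and 54.1% of all genes. Leaving out Zbtb7b, Zbtb7a and Zbtb8os, 24 of 34 relatives reached a mean of 10 CPM in at least 1 group. Their median log2 change was 0.14 against the genetic and 0.11 against the animal controls, beside 0.02 and 0.02 over the 8938 genes of the table at that level. Against both controls the median was 0.28, beside 0.04. Of these 24, 16 had estimates above 0 against the genetic, 14 against the animal and 16 against both controls, beside 4616, 4592 and 4773 of the 8938 genes. No test was made of this shift. The median 95% interval reached 1.24 to either side of the estimate, so changes of 2-fold could be missed for most of them. Summed over the 34 relatives, the libraries held 921 to 1181 CPM in deficient libraries, 889 to 1112 CPM among genetic and 1011 to 1093 CPM among animal controls, and these ranges overlap. Zbtb7b made up 7.70% to 12.5% of the summed CPM of all members in the genetic controls, 5.63% to 8.52% in the animal controls and 0.0139% to 0.0279% in the deficient cells.

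**Figure D3:**
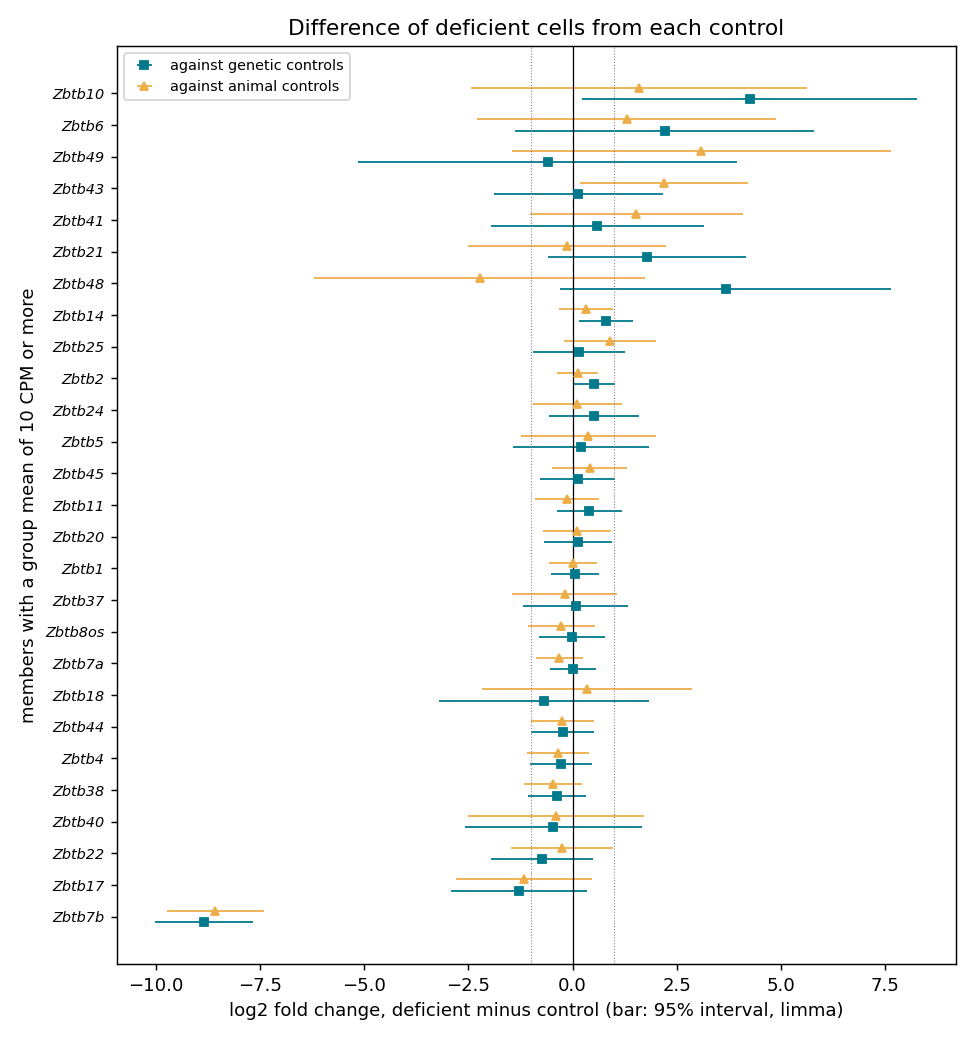
Log2 fold change of deficient cells against the genetic controls (squares) and the animal controls (triangles) for the members with a mean of 10 CPM or more in a group; bars are 95% intervals from limma, and dotted lines mark a 2-fold change. Zbtb7b stands apart at -8.85 and -8.58, and the narrow intervals of Zbtb1 and Zbtb2 contrast with the wide ones of Zbtb10, Zbtb6 and Zbtb49.

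How far the 95% intervals bound a change depended on the control. Of the 34 relatives, 3 had an interval wholly within a 2-fold change in either direction against the genetic controls: Zbtb1, Zbtb20 and Zbtb44. Against the animal controls 5 did, Zbtb1, Zbtb2, Zbtb11, Zbtb14 and Zbtb20, and against the mean of both controls 6 did, Zbtb1, Zbtb2, Zbtb4, Zbtb11, Zbtb20 and Zbtb44. Zbtb1 and Zbtb20 were the relatives bounded in all 3 comparisons. A 2-fold rise against the genetic controls lay within the interval of Zbtb2 (upper bound 1.02 on the log2 scale) and of Zbtb11 (1.18).

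Zbtb1, which early lymphoid progenitors need to form T cells, was among the steadiest members. It read 133, 118 and 98.0 CPM in deficient libraries, 77.3, 143 and 122.8 CPM among genetic and 108, 104 and 135 CPM among animal controls. The groups overlapped fully, with a log2 change of 0.06 ± 0.26 against the genetic and 0.01 ± 0.26 against the animal controls. Zbtb20, a repressor with roles in plasma cells, read 52.2, 89.7 and 60.1 CPM in deficient libraries, 45.8, 74.9 and 62.5 CPM among genetic and 91.3, 62.0 and 40.2 CPM among animal controls. Its estimates were 0.13 ± 0.37 and 0.10 ± 0.37, again with overlapping groups.

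Zbtb25, whose gene starts 663 bases from that of Zbtb1 on the opposite strand of chromosome 12, read 68.5, 63.0 and 38.1 CPM in deficient libraries. It read 39.0, 52.2 and 57.4 CPM among genetic and 13.5, 36.04 and 52.6 CPM among animal controls. It was higher than in the animal control of the same mouse in 2 of 3 mice, and the estimate of 0.89 ± 0.49 did not pass (adjusted p = 0.523). Zbtb24, which is mutated in a form of the immunodeficiency and centromere instability syndrome ICF, read 44.3, 50.6 and 60.4 CPM in deficient libraries, 66.4, 43.0 and 16.1 CPM among genetic and 52.3, 37.8 and 53.7 CPM among animal controls, and its groups overlapped.

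Zbtb17 encodes Miz-1, a partner of MYC that lymphoid progenitors need for interleukin-7 signalling. Its deficient libraries read 7.95, 6.32 and 12.5 CPM, the genetic controls 17.8, 40.6 and 12.5 CPM, and the animal controls 7.28, 23.5 and 41.7 CPM. The deficient values stood at the low end, but 1 library of each control group came close to them or below. The estimates were -1.28 ± 0.73 against the genetic (adjusted p = 0.579) and -1.17 ± 0.73 against the animal controls (adjusted p = 0.592).

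Zbtb32, a repressor of T cell cytokine genes also called ROG, was at the lowest value of the table, 0.00457 CPM, in all 3 deficient libraries. It was listed at that value in 2 of the 3 animal controls as well, with 8.15 CPM in that of mouse 142114, and at 0.105, 2.999 and 3.56 CPM among genetic controls. The deficient cells therefore did not overlap with the genetic controls, but did with the animal controls, and no fold is given because up to 11.4% of all genes in a library share that lowest value. The adjusted p was 0.385 against the genetic and 0.727 against the animal controls. Zbtb46, a factor of classical dendritic cells, read 4.77, 3.95 and 1.78 CPM in deficient libraries, 1.15, 6.17 and 0.845 CPM among genetic and 1.08, 13.2 and 11.8 CPM among animal controls. Those groups overlapped. Zbtb46 is itself one of the 6 listed myeloid and dendritic markers. The libraries with most of it, animal controls 232614 and 432614, had sums of 34.6 and 17.8 CPM over that list, Zbtb46 included, and genetic control 8619 had 299.8 CPM. The part of such cells in the values of Zbtb46 was not tested.

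The members that bind methylated CG sites, Zbtb4, Zbtb38 and Zbtb33 (Kaiso), gave no call. Zbtb38 read 102, 77.3 and 67.6 CPM in deficient libraries, 88.4, 124 and 105 CPM among genetic and 154, 127 and 71.2 CPM among animal controls. It was lower than in the animal control of the same mouse in 3 of 3 mice, as was Zbtb4, and the estimates of Zbtb38 were -0.37 ± 0.31 and -0.46 ± 0.31. Zbtb4 ranged from 30.6 to 46.0 CPM in deficient libraries, from 33.0 to 60.1 CPM among genetic and from 39.8 to 56.3 CPM among animal controls. Zbtb33 ranged from 0.285 to 25.04 CPM over the 9 libraries, with at least 1 library of each group above 10 CPM.

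Among the other relatives, 3 lay higher in every deficient library than in every genetic control: Zbtb2, Zbtb10 and Zbtb14 (8.11% of members, beside 8.44% of all genes). Zbtb2 and Zbtb14, like Zbtb26 and Zbtb39 below, are singled out for that pattern, after their values were seen. Zbtb14, also called ZF5, a repressor that binds GC-rich sites, read 58.2, 59.9 and 44.5 CPM in deficient libraries and 30.4, 29.95 and 32.5 CPM among genetic controls. The animal controls, at 36.3, 51.4 and 42.6 CPM, lay above the genetic controls too and overlapped with the deficient cells, although each was below the deficient library of its own mouse. The change was 0.80 ± 0.29 against the genetic controls (95% interval 0.15 to 1.44, limma adjusted p = 0.345) and 0.32 ± 0.29 against the animal controls (-0.32 to 0.97, adjusted p = 0.747).

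Zbtb2, known as a repressor in the p53 pathway, showed the same order of groups. Its deficient libraries read 86.9, 72.2 and 78.8 CPM, the genetic controls 47.6, 58.3 and 60.0 CPM, and the animal controls 68.2, 76.9 and 73.3 CPM. The genetic controls were the group that stood apart, below both others without overlap, while deficient cells and animal controls overlapped. The change was 0.52 ± 0.22 against the genetic (adjusted p = 0.448) and 0.12 ± 0.22 against the animal controls (adjusted p = 0.906). Zbtb10, a repressor of SP family genes, read 5.99, 30.9 and 16.5 CPM in deficient libraries, 5.27, 0.0357 and 2.33 CPM among genetic and 1.17, 7.28 and 13.0 CPM among animal controls. The lowest deficient and the highest genetic control library, at 5.99 and 5.27 CPM, nearly met, and the adjusted p was 0.443. Zbtb10 was above the animal control of the same mouse in all 3 mice, as were Zbtb14 and Zbtb6; 3 of 37 members (8.11%) did so, beside 15.2% of all genes.

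The members that lay lower in every deficient library than in every genetic control were Zbtb7b, Zbtb32 and Zbtb39 (8.11%, beside 7.28% of all genes). Zbtb39 was rare throughout, at 0.00457 to 0.218 CPM in deficient libraries, 0.845 to 2.14 CPM among genetic and 0.0317 to 0.408 CPM among animal controls. Against the animal controls, 0 members were higher without overlap (7.85% of all genes) and 3 were lower, Zbtb7b, Zbtb26 and Zbtb48 (8.11%, beside 8.10%). Zbtb26 read 0.147, 0.00457 and 0.0260 CPM in deficient libraries and 2.63, 2.28 and 2.07 CPM among animal controls, but 0.00891, 3.28 and 0.0641 CPM among genetic controls. Its exons share 449 bases with those of Zbtb6 on the same strand, so reads there may have been counted for either gene. Lower in all 3 mice than in the paired animal control were 6 members (16.2%, beside 14.6% of all genes): Zbtb4, Zbtb7a, Zbtb7b, Zbtb26, Zbtb38 and Zbtb48.

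Zbtb48 and Zbtb43 were the members whose 2 kinds of control differed at an unadjusted p under 0.05, in opposite directions (1 lower and 1 higher in the genetic controls, beside 3.18% and 3.44% of all genes). Zbtb48, also called TZAP, which binds telomere repeats, read 21.9, 21.1 and 32.6 CPM among animal controls but 4.71, 0.0188 and 0.781 CPM among genetic controls, which did not overlap. The deficient libraries, at 1.504, 10.1 and 9.501 CPM, overlapped with the genetic controls and lay below all animal controls. The control groups differed by -5.91 ± 1.78 (genetic minus animal, unadjusted p = 0.00799, limma adjusted p = 0.541); 5 genes of the whole table were called there, 0 of them members (background 0.0365%). Without overlap, 3 members were lower in the genetic controls, Zbtb2, Zbtb14 and Zbtb48 (8.11%, beside 5.57% of all genes), and 1, Zbtb39, was higher (beside 4.88%); 16 of 37 had an estimate above 0, beside 48.9%. Zbtb43 read 45.0, 63.4 and 15.9 CPM among genetic controls, 23.3, 2.03 and 13.6 CPM among animal controls and 21.03, 52.0 and 55.8 CPM in deficient libraries. Its difference between the controls was 2.05 ± 0.90 (adjusted p = 0.748), and that of deficient cells from the animal controls was 2.19 ± 0.90 (adjusted p = 0.381). Zbtb43 was lower in the deficient library of mouse 142114 than in its animal control and higher in the other 2 mice.

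Several members of middling level varied too much between libraries of 1 group for their means to be compared. Zbtb6 read 32.9, 24.4 and 4.58 CPM in deficient libraries, 7.09, 14.6 and 0.358 CPM among genetic and 14.2, 19.5 and 0.882 CPM among animal controls. Zbtb41 read 41.6, 19.0 and 13.3 CPM in deficient libraries, 24.8, 8.88 and 13.9 CPM among genetic and 22.3, 0.916 and 20.97 CPM among animal controls. Zbtb49 read 15.2, 18.3 and 1.49 CPM in deficient libraries, 15.8, 11.6 and 7.88 CPM among genetic and 0.0215, 10.2 and 2.999 CPM among animal controls. In each of these genes the groups overlapped, and the library with the lowest value differed from its group by several-fold.

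Zbtb21 read 27.5, 3.31 and 21.6 CPM in deficient libraries, 9.24, 1.32 and 3.93 CPM among genetic and 5.59, 16.0 and 29.2 CPM among animal controls. Zbtb18, also called RP58, a repressor that acts in neuronal development, read 14.4, 8.91 and 3.24 CPM in deficient libraries, 13.42, 37.1 and 3.40 CPM among genetic and 1.52, 13.9 and 9.69 CPM among animal controls. Zbtb40 read 29.2, 19.0 and 8.60 CPM in deficient libraries, 41.2, 19.6 and 15.4 CPM among genetic and 32.1, 4.54 and 75.003 CPM among animal controls. These groups overlapped as well. Zbtb22, which lies next to the antigen-presentation gene Tapbp on chromosome 17 and shares 149 exon bases with it on the same strand, read 39.7, 14.1 and 26.4 CPM in deficient libraries, 44.3, 34.8 and 44.4 CPM among genetic and 57.0, 29.9 and 14.9 CPM among animal controls.

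The members not yet given had overlapping groups in each comparison. Zbtb44 and Zbtb11 were the higher ones, with ranges of 68.8 to 160 and 55.8 to 131 CPM over the 9 libraries. Zbtb8os ranged from 29.0 to 65.9, Zbtb45 from 19.4 to 37.8, Zbtb5 from 6.20 to 38.9 and Zbtb37 from 10.3 to 29.8 CPM. Zbtb8a ranged from 0.309 to 19.4 CPM; its exons share 264 bases with Zbtb8os on the opposite strand, and no label says whether the counting used strand. Zbtb34, Zbtb3, Zbtb42 and Zbtb12 were each below 0.1 CPM in at least 1 library, and ranged up to 23.4, 13.43, 8.996 and 1.057 CPM. Such scatter within groups tracks level: the 19 members whose mean reached 10 CPM in every group had a median within-group SD of 0.46 on the log2 scale, the same as for the 7352 genes of the table at that level (0.46), while the other 18 members had 2.43.

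**Figure D4:**
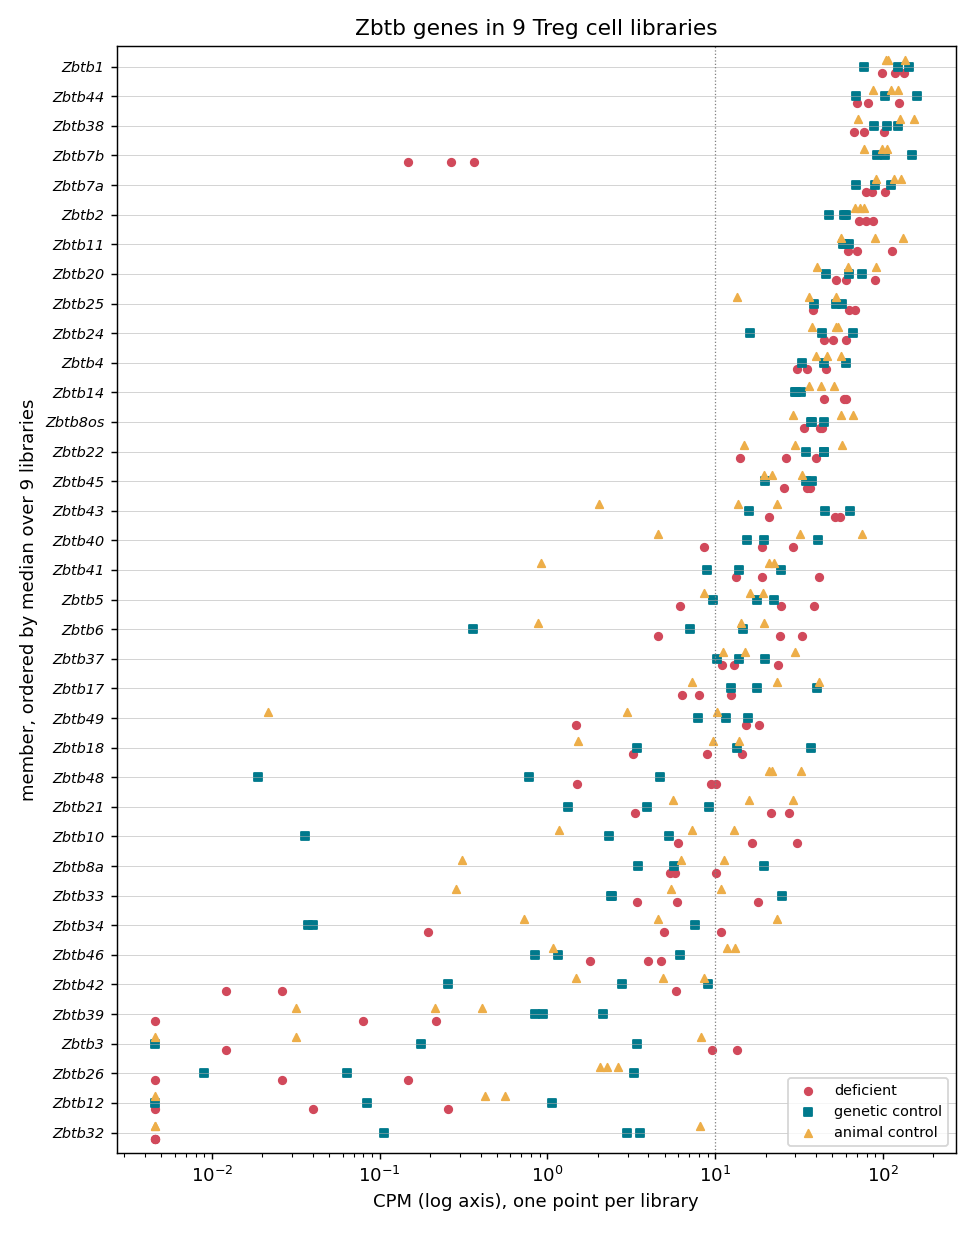
CPM of all 37 members in each of the 9 libraries (log axis; circles deficient cells, squares genetic controls, triangles animal controls), ordered by the median over libraries, with a dotted line at 10 CPM. Zbtb7b is the one member near the top whose deficient libraries lie apart from all controls, and points scatter widely below 10 CPM.

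Position and promoter letters were set beside the changes. The members lie on 14 chromosomes, with 6 on chromosome 4 and 5 on chromosome 2, and 4 pairs lie within 100000 bases of each other: Zbtb1 with Zbtb25, Zbtb8a with Zbtb8os, Zbtb34 with Zbtb43, and Zbtb6 with Zbtb26. The partners in the pair Zbtb34 and Zbtb43 had changes of 3.28 ± 2.43 and 0.14 ± 0.90 against the genetic controls. Among relatives with a promoter window, the 18 with a GACCC match in at least 1 window had a median log2 change of 0.18 against the genetic controls and 0.06 against the animal controls. The 13 without a match had medians of -0.23 and -0.19. Between the 2 kinds of control, genetic minus animal, the same sets had medians of -0.44 with a match and 0.41 without. Members near the lowest value of the table are among both sets, members with several windows had more chances of a match, and no test was made.

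BTB zinc finger genes under other symbols gave no call either. Of 13 such symbols 7 were listed under that name; Zfp161, Zfp238, Zfp295 and Zfp509 are older names of Zbtb14, Zbtb18, Zbtb21 and Zbtb49, which are among the 37 members. Of the 7, 0 were called higher or lower in any of the 4 comparisons. Of all genes, 0.869% were called against the genetic, 0.891% against the animal and 1.23% against both controls, and 0.0365% between the controls. In a list this short, 0 calls is near those shares. The median change of the 7 was -0.23 against the genetic and 0.57 against the animal controls, beside 0.04 and 0.04 for all genes. Between the controls, genetic minus animal, it was 1.11, with 7 of 7 estimates above 0, beside a median of -0.02 for all genes. Bcl6, Patz1 and Hic2 are named after their values were seen. Bcl6, a repressor that acts in follicular helper T cells, averaged 34.6 ± 14.4 CPM in deficient libraries, 42.2 ± 13.3 CPM among genetic and 17.2 ± 5.31 CPM among animal controls (SD, n = 3). Patz1, a repressor that acts in thymocytes, averaged 85.2 ± 31.7, 59.3 ± 9.97 and 55.8 ± 14.1 CPM in the same order. Hic2 averaged 12.8 ± 8.94 CPM in deficient libraries, 2.596 ± 4.45 CPM among genetic and 0.796 ± 1.34 CPM among animal controls, with a limma adjusted p of 0.501 and 0.374. Of 8 BTB proteins without zinc fingers of this kind, such as Bach2 and Keap1, 7 were listed. Among them 0 were called in any comparison, again near the shares of all genes.

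Of 25 corepressors and partners of BTB zinc fingers, 0 were called in any comparison. With 0.869% of all genes called against the genetic, 0.891% against the animal and 1.23% against both controls, that count is near the background. Between the controls the share of all genes was 0.0365%. The median change of the 25 was 0.21 against the genetic and 0.12 against the animal controls, beside 0.04 and 0.04 for all genes. Ncor1 averaged 321 ± 31.0 CPM in deficient libraries, 265 ± 74.4 CPM among genetic and 297 ± 36.4 CPM among animal controls (SD, n = 3), and Cul3 273 ± 43.0, 305 ± 54.6 and 238 ± 55.4 CPM. Hdac1 and Hdac7 are named after their values were seen. Hdac1, a histone deacetylase of several corepressor complexes, had the lowest adjusted p against the animal controls (0.118), at 401 ± 33.5 CPM in deficient libraries against 265 ± 34.5 CPM, and 312 ± 40.0 CPM among genetic controls. Hdac7, a class IIa deacetylase of T cells, had the lowest against the genetic controls (0.189), at 198 ± 23.8 against 101 ± 17.4 CPM, and 189 ± 80.0 CPM among animal controls.

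Coreceptor genes under the known control of Thpok and LRF moved in these libraries. Cd8a rose from 21.9 to 367 CPM and Cd4 fell from 866 to 355 CPM between genetic controls and deficient cells (limma adjusted p = 0.00188 and 0.00488). Runx3, a factor of the CD8 lineage that Thpok opposes, rose against the genetic controls (adjusted p = 0.0240) and did not pass against the animal controls (adjusted p = 0.647); it averaged 96.1 CPM in deficient libraries, 24.2 CPM among genetic and 70.6 CPM among animal controls.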

How the data were processed

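The submitters' processing notes name bcl2fastq 1.8.4, STAR 2.4.0h, limma and the build mm10, without roles; for counter, gene filter and normalization the labels name nothing. Deposited values are log2 CPM that the authors had normalized; this unit was read from the values, which sum to 999252 to 999256 per library on the linear scale, and whose lowest (-7.77) and highest (13.42) are the same in each. Single values also recur between genes and libraries. Both Zbtb1 in genetic control 124 and Zbtb38 in deficient 232614 stand at 77.328492 CPM. Values were thus set close to a common distribution, by a step that the labels do not name. No total count can be recovered, so depth and counting error are unknown.

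Of 13702 rows, 4 exact duplicates were dropped. All 13698 genes were fitted with limma-trend (limma 3.58.1, R 4.3.3) on the 3 group means over 9 libraries, with no pseudocount or filter, for deficient cells against each control and against the mean of both, and for genetic against animal controls. P-values are two-sided with Benjamini-Hochberg adjustment over all genes. A single-gene exact permutation test of 3 against 3 cannot go below 0.1, so none is given. The fit was tried on simulated data with normal errors, for deficient cells against genetic controls. Changes were added only to genes with a mean of 10 CPM or more. Lower genes and the shared mice were thus not covered. Annotation came from GENCODE M21 and promoter windows from RefSeq (GRCm38.p6), read with pandas 2.3.3; figures used matplotlib 3.10.9.

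The members, lists, markers and alternatives were chosen with earlier results of these data known. Named with every library's value were the deleted genes, called members, a list of members with roles in lymphocytes and, per comparison, the 4 largest rises and 4 largest falls at 10 CPM or more; the rest are given by range. Marker lists covered Treg, B, plasma, myeloid and dendritic, innate-like and erythroid cells. The plasma cell list (4 of 6 listed) summed to 144 to 388 CPM over the libraries, and the NK and innate-like T list (5 of 8) to 5.66 to 19.4 CPM. Most of the plasma cell sum was Xbp1, at 137 to 336 CPM. The deficient cells and animal controls come from the same mice, by the series' design text; after removal of group means, libraries of the same mouse correlated at 0.0483, 0.0202 and 0.0170 across 7550 genes, so the mouse was also tried as a term.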

Additional observations from a re-analysis of the deposited data

How the results depend on the processing

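Zbtb7b was the member called in every fit against the genetic controls and against both controls, and in every fit but 1 against the animal controls. That fit, with the replicate block as a fixed mouse term on 6 libraries, has few residual degrees of freedom; it called 0 members and 0 of all genes (1395 at an unadjusted p under 0.05), and the log2 change of Zbtb7b stayed at -8.58 with an adjusted p of 0.170. The replicate block as a random term changed no call of a member. The count of all genes called fell from 119 to 22 against the genetic controls, from 122 to 52 against the animal controls and from 5 to 3 between the controls when only the 6 libraries compared were fitted; without the trend the last was 32. Without 1 library the counts ran from 48 to 93, from 58 to 115 and from 4 to 10 in these 3 comparisons (from 114 to 141, beside 168, against both controls), and the members called stayed at 1, 1, 0 and 1. The count moved by over 1.5 times against the genetic controls without deficient 142114 (64), 232614 (72) or 432614 (68), genetic 124 (71), 8619 (48) or 8800 (49), or animal 432614 (72). Against the animal controls it did so without animal 142114 (74), 232614 (81) or 432614 (58), and between the controls without genetic 124 (10). The split of the 119 calls went from 46 higher and 73 lower to 46 and 39 without the trend. Higher calls moved most: without deficient 142114, 232614 or 432614 they were 10, 11 and 10 in place of 46 against the genetic controls, 16, 11 and 13 in place of 42 against the animal controls, and 22, 31 and 30 in place of 54 against both. Without genetic 8619 or 8800 or animal 432614 the 46 became 22, 18 and 29, and without animal 432614 the 42 became 17. The shares of all genes called higher shift with these counts.

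Of 80 estimates for named members, 32 changed sign in at least 1 fit; none of these 32 was called in any fit. With 1 CPM added, Zbtb46 and Zbtb48 against both controls became -0.13 and -0.17. The other changes of sign arose when 1 library was left out, as log2 ranges over 9 fits. For deficient cells against animal controls the ranges were Zbtb1 -0.091 to 0.13, Zbtb18 -0.64 to 0.96, Zbtb20 -0.20 to 0.39, Zbtb21 -0.79 to 0.82, Zbtb22 -0.75 to 0.22, Zbtb24 -0.045 to 0.22, Zbtb40 -1.54 to 0.48, Zbtb6 -0.11 to 2.18. For deficient cells against both controls the ranges were Zbtb1 -0.094 to 0.15, Zbtb18 -0.66 to 0.43, Zbtb20 -0.11 to 0.28, Zbtb40 -1.0 to 0.053, Zbtb46 -0.56 to 0.47, Zbtb48 -0.39 to 1.62, Zbtb49 -0.085 to 2.41. For deficient cells against genetic controls the ranges were Zbtb1 -0.20 to 0.24, Zbtb18 -1.58 to 0.14, Zbtb20 -0.10 to 0.30, Zbtb24 -0.058 to 0.96, Zbtb40 -0.86 to 0.023, Zbtb43 -0.44 to 0.60, Zbtb49 -1.25 to 0.56, Zbtb7a -0.17 to 0.17. For genetic against animal controls the ranges were Zbtb1 -0.24 to 0.21, Zbtb17 -0.59 to 0.67, Zbtb20 -0.33 to 0.26, Zbtb22 -0.013 to 0.96, Zbtb24 -0.85 to 0.18, Zbtb38 -0.41 to 0.14, Zbtb40 -1.08 to 0.94, Zbtb41 -0.58 to 1.73, Zbtb6 -2.32 to 0.70. The depth is unknown, and the 18 members below 10 CPM in some group mean had a median SD of 2.43 on the log2 scale, which limits what could be detected in them.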
